A study of Ovis aries with 18 samples.

Results

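The genes described here encode parts of the TGF-beta, BMP, Wnt and Notch signalling pathways in fetal sheep fat. They were chosen by gene symbol, from name stems such as TGFB, BMP, SMAD, LTBP, WNT, FZD, SFRP, NOTCH and JAG, among the autosomal SNPs of the table. The choice gave 281 SNPs in 52 genes, of 24355 SNPs in 5810 genes in all. Of the 52 genes, 48 act in these pathways and 4 share only a name stem with them. Perirenal adipose tissue, which is largely brown fat before birth in sheep, had been taken from 18 singleton fetuses at 132 days post conception and profiled by RNA-Seq. There was 1 group and no treatment: the mothers were unrelated ewes on a maintenance diet, the sire was common to all fetuses, and the labels give 16 females and 2 males. Within each animal the comparison was between the 2 alleles of a gene, which shows whether allelic imbalance in gene expression (AI) is present. At a SNP where an animal was called heterozygous, the reference share is the fraction of its reads that carry the reference base, and a share of 0.5 means equal reads from both alleles.

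All 3 pathways pass a signal from an extracellular ligand to the nucleus. TGF-beta and BMP ligands bind paired serine/threonine kinase receptors that phosphorylate SMAD proteins. Wnt ligands bind frizzled receptors and, through dishevelled, release beta-catenin from a destruction complex built on APC and axin. Notch receptors are cut after contact with a ligand on a neighbouring cell, and the freed fragment joins RBPJ to switch on genes such as HES1. In fat, BMP signals favour brown adipocytes, whereas Wnt and Notch signals are known to hold back adipocyte differentiation or the brown programme.

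Reads per animal summed to between 2970824 and 5334585 over the table and to between 24104 and 46630 over the signalling SNPs. The median heterozygous signalling SNP had between 47 and 84 reads per animal. The brown adipocyte markers UCP1, CIDEA, PPARGC1A, DIO2 and PDK4 all had SNPs in the table, with summed mean reads of 7060 to 20763 per animal. Of the adipocyte markers, ADIPOQ and PLIN1 could be read, whereas FABP4 and LPL could not. The macrophage markers CD163 and CSF1R summed to 37.9 to 87.6 reads, the endothelial markers CDH5 and KDR to 402 to 823 reads, and STAR, the only adrenal marker that could be read, to 25.5 to 63.3 reads. No marker of skeletal muscle, kidney tubule or erythroid cells had a SNP, so these cells could not be looked for. Animal RS929 is labelled female, but 29.1% of its X chromosome SNPs were called heterozygous, against 54.1% to 69.7% in the other 15 females and 25.4% and 32.4% in the males. Leaving it out gave 119 called SNPs in place of 121 and the same number of called genes, 19. Of the signalling SNPs 43, in 10 genes, have a neighbour within 5 bp. Such SNPs share reads, and SNPs of the same gene share animals, so counts of SNPs are not counts of independent observations.

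AI was called at 121 of the 278 signalling SNPs that could be tested, or 43.5%. The background over all tested SNPs was 38.0%, by a Poisson likelihood ratio test on reads summed over the heterozygous animals at a Benjamini-Hochberg adjusted P under 0.05. The reference allele was the higher at 92 of the 121 called SNPs (76.0%, Wilson 95% interval 67.7% to 82.8%) and the alternate allele at 29. Calls with the reference allele higher made up 28.9% of all tested SNPs, and 76.3% of all calls had that direction. The median reference share was 0.520 over the signalling SNPs and 0.519 over all tested SNPs. With animals rather than reads as the replicates, in a moderated quasi-binomial F test, 90 signalling SNPs were called, or 32.4%, against a background of 24.6%. By the gene threshold of the study, a smallest P under 1.7e-05, 19 of the 52 genes (36.5%) showed AI, against a background of 30.6% of 5795 genes. By pathway these were 5 of 23 TGF-beta and BMP genes, 8 of 17 Wnt genes, 4 of 8 Notch genes and 2 of the 4 genes matched by name only. The study's final gene list also required a high rank after down-sampling of reads, which was not applied here.

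**Figure D1:**
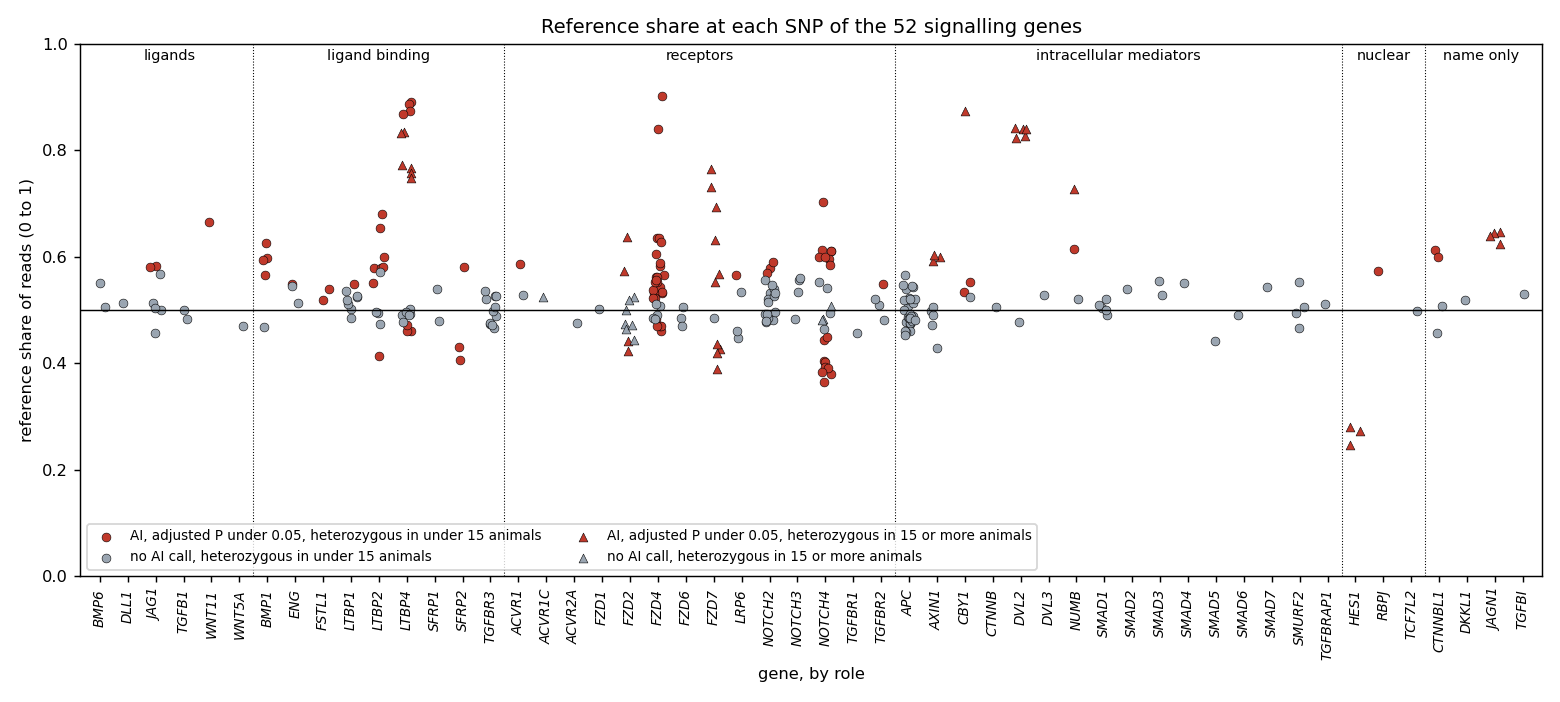
Reference share (0 to 1) of each tested SNP, from reads summed over heterozygous animals, for the 52 genes ordered by role. Red marks the SNPs with AI and triangles the SNPs heterozygous in 15 or more of the 18 animals, and most of the shares above 0.7 or below 0.3 belong to triangles or to LTBP4.

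Many of the signalling SNPs were called heterozygous in every animal, which leaves no homozygous animal to compare with. They numbered 47 of 281, or 16.7%, against 5.42% of all SNPs. Of these 47 SNPs, 37 had AI (78.7%), against 1056 of 1319 (80.1%) over all SNPs heterozygous in every animal. The median share was 0.600 in the former and 0.582 in the latter. Among signalling SNPs heterozygous in under 15 animals, 84 of 230 had AI (36.5%), against a background of 34.6%. On those SNPs alone, 12 of 48 signalling genes passed the gene threshold, against 1501 of 5619 genes over the whole table, so no excess of genes remained. The 7 genes that lost their call were AXIN1, DVL2, FZD2, FZD7, HES1, JAGN1 and NUMB. Whether SNPs heterozygous in every animal mark 2 alleles of a single locus was not tested.

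Among the ligands, WNT11 alone passed the gene threshold. The table held 6 ligand genes with 14 SNPs, of which 3 were called (21.4%), against 38.0% of all tested SNPs. Over all genes 30.6% passed the gene threshold. WNT11, a ligand of non-canonical Wnt signalling, had a single SNP, a synonymous change at 53770229 on chromosome 15 (all positions are in the sheep assembly Oar v3.1). The reference share was 0.633 in RS920, 0.683 in RS929, 0.716 in RS933, 0.584 in RS940 and 0.725 in RS943. All 5 heterozygous animals lay above 0.5, and the summed share was 0.665 (298 reference and 150 alternate reads, adjusted P = 1.58e-11). The exact sign-flip permutation test, which takes the animal as the unit, gave P = 0.0625, the smallest that 5 animals allow. JAG1, a Notch ligand, had 2 called SNPs of 7, with shares of 0.581 and 0.583, and did not pass the gene threshold, although it did without RS940 and without RS953.

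TGFB1, the founding member of its family, gave 674 reference and 674 alternate reads over 12 animals at the SNP on chromosome 14 at 49660159, and its other SNP had a share of 0.483. WNT5A had a share of 0.469 at its only SNP, without a call, but its 11 animals ranged from 0.105 to 0.731, a spread larger than counting error (adjusted P = 0.00268). BMP6 at 0.506 and 0.551 and DLL1 at 0.514 were not called.

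Of the proteins that bind, store or process ligands, 6 of 9 genes passed the gene threshold: BMP1, ENG, FSTL1, LTBP2, LTBP4 and SFRP2. The other 3, LTBP1, SFRP1 and TGFBR3, did not. Over all genes 30.6% passed. A gene with more SNPs has more chances to pass, and these 9 genes held 68 SNPs against 14 in the 6 ligand genes. Differences between roles were not tested. TGFBR3, the co-receptor betaglycan, had no called SNP among 11, with shares from 0.467 to 0.535.

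LTBP4, which anchors latent TGF-beta in elastic matrix, had the largest test statistic of any signalling gene beside SNPs close to equality. At the missense SNP on chromosome 14 at 49059314 the share was 0.719 in the lowest animal, 0.773 in the median animal and 0.827 in the highest of 18. All 18 animals lay above 0.5 (mean 0.772 ± 0.0294 SD, permutation P = 1e-05, the smallest the resampling can give). This SNP and its 3 neighbours span 5 bp, with shares of 0.748 to 0.773, and another pair 1 bp apart at 49064084 and 49064085 had shares of 0.835 and 0.832. Another 4 SNPs, at 49054634 to 49054643, were called heterozygous in only 2 to 6 animals, with shares of 0.868 to 0.892. At 49054640 the 6 animals ranged from 0.856 to 0.895 with a median of 0.872 (exact permutation P = 0.0313, the smallest for 6 animals; adjusted P = 0.0484 over the 31 SNPs tested in this way). Animals called homozygous at these 4 SNPs still carried 1.42% to 2.10% of reads of the other allele.

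A further 3 LTBP4 SNPs, at 49069847, 49069853 and 49069855, could not be tested because all 18 animals were called homozygous for the alternate base. The remaining 9 tested SNPs of LTBP4 had shares from 0.460 to 0.502. At 658 bp from the nearest SNP heterozygous in all animals, the SNP at 49059977 gave 1976 reference and 1998 alternate reads in 11 animals. Of the 9, 3 were called, all with the alternate allele higher. Thus neighbouring exonic positions of the same gene gave shares near 0.5 and near 0.8 in the same animals.

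LTBP2, a matrix protein of the same family that does not itself bind TGF-beta, showed another pattern, with large differences between animals. It had 8 of 12 SNPs with AI and 6 with a spread between animals beyond counting error. Over the signalling SNPs 27 of 277, or 9.75%, had such a spread, against a background of 15.4%. FZD4, which has more SNPs and reads, held 9 of the 27 (9 of 30 tested SNPs) and LTBP2 held 6. Dispersion is the Pearson chi-square between animals over its degrees of freedom, near 1 for counting error alone, and its median was 1.32 over signalling SNPs and 1.41 over all. Of the 5 signalling SNPs with the largest dispersion 3 were in LTBP2, with 8.18, 7.13 and 4.97 at 82712426, 82709555 and 82707843 of chromosome 7.

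At the synonymous LTBP2 SNP at 82712426 the 12 heterozygous animals ranged from 0.279 in RS933 to 0.902 in RS929, with a median of 0.617. RS929 had 37 reference and 4 alternate reads, with a Wilson 95% interval of 0.775 to 0.961. RS933 had 17 and 44, with an interval of 0.182 to 0.402. The 2 intervals do not overlap, and such intervals cover counting error only. At this SNP 9 animals lay above 0.5 and 3 below, and the mean over animals, 0.606 ± 0.186 (SD), was not distinguishable from 0.5 (exact permutation P = 0.0767). Without RS929 the mean was 0.579.

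RS918, RS943 and RS929, the highest animals at this SNP, were also high along the gene, and were picked after their values were seen. RS933, the lowest at this SNP, was not low throughout, with 0.732 at 82705723. RS918 had shares of 0.781, 0.857, 0.717, 0.854 and 0.818 at its 5 heterozygous LTBP2 SNPs. RS943 had 0.8, 0.882, 0.780, 0.741 and 0.667. RS929 was heterozygous at 3, with shares of 0.868, 0.902 and 0.773. In these animals the reference allele was thus the higher at every LTBP2 SNP that could be read. RS903, by contrast, had shares of 0.391 to 0.681 over 8 SNPs, on both sides of 0.5. The genotypes do not say which alleles of neighbouring SNPs lie on the same chromosome copy, so a switch of side along the gene, as in RS933 and RS947, cannot be told apart from a switch of phase.

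**Figure D2:**
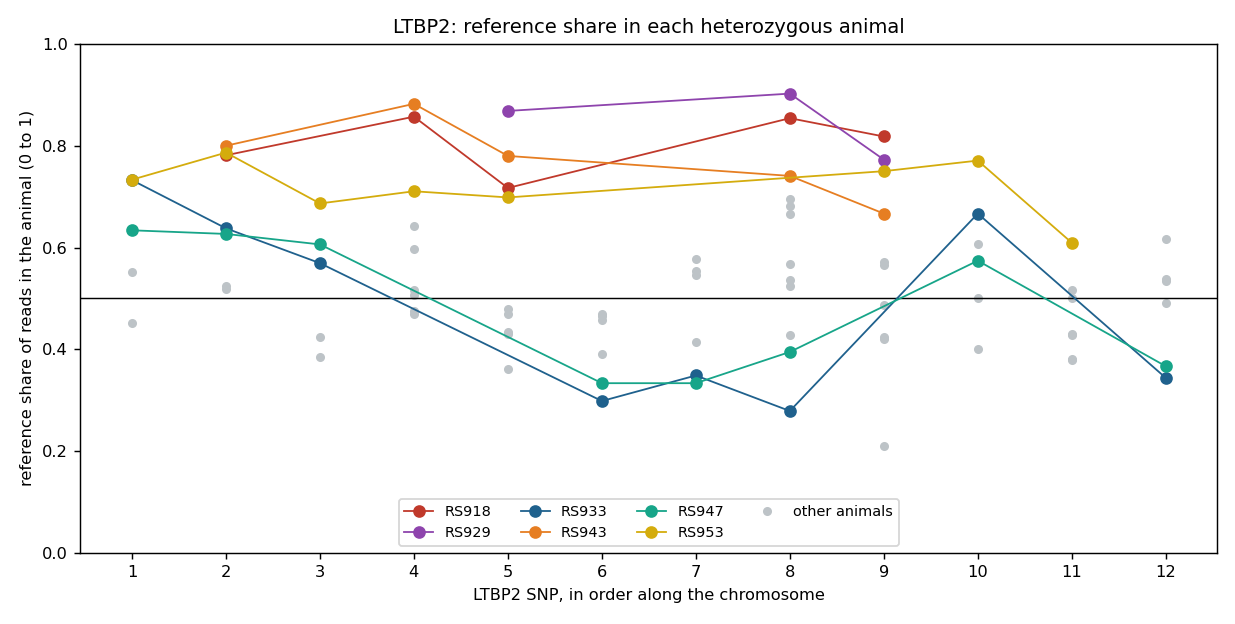
Reference share (0 to 1) of every heterozygous animal at the 12 LTBP2 SNPs, in order along chromosome 7. Colour marks 6 animals, chosen after their values were seen and joined by lines: RS918, RS943, RS929 and RS953 stay above 0.5 throughout, RS933 and RS947 change sides, and grey points are the other animals.

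The top LTBP2 SNP by the summed test, at 82705793, had shares of 0.518, 0.638 and 0.8 in the lowest, median and highest of 7 animals. All 7 were above 0.5 (summed share 0.680, exact permutation P = 0.0156, adjusted P = 0.0303). Of the called LTBP2 SNPs 3 were missense, at 82705723, 82715641 and 82730099, with shares of 0.654, 0.579 and 0.581. At 82715641 the 11 animals ran from 0.211 to 0.818.

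BMP1, a metalloprotease that trims procollagens and frees BMPs from chordin, had 4 called SNPs of 5, all with the reference allele higher. At 43149987 on chromosome 2 the 6 animals ranged from 0.554 to 0.707, with a median of 0.630, and none lay below 0.5 (summed share 0.626, exact permutation P = 0.0313). A run of 3 synonymous SNPs within 120 bp had shares of 0.566 to 0.599, and in each of its 9 heterozygous animals the mean over the 3 SNPs was above 0.5. The fifth SNP, at 43178734, had a share of 0.468 and was not called.

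ENG encodes endoglin, a co-receptor of endothelial cells. Its SNP at 8301718 on chromosome 3 gave the tightest values of any named SNP, from 0.537 to 0.562 in 8 animals with a median of 0.548 (mean 0.550 ± 0.00954 SD). All 8 lay above 0.5 (exact permutation P = 0.00781), and the dispersion was 0.110. The imbalance was small but larger than the spread between animals. The other 2 ENG SNPs, at 0.513 and 0.544, were not called. FSTL1, a secreted follistatin-like glycoprotein, was likewise small in effect. The 3' UTR SNP at 183431120 on chromosome 1 ranged from 0.503 to 0.576 in 7 animals with a median of 0.529, and its summed share was 0.540 (exact permutation P = 0.0156). With the median share of the whole table as the null instead of 0.5, this SNP had an exact permutation P of 0.141. The other FSTL1 SNP was called with a share of 0.519. The gene call of ENG was lost without RS910 or RS937, and that of FSTL1 without RS903, RS937 or RS953.

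SFRP2, a secreted antagonist of Wnt, had called SNPs with reference shares on both sides of 0.5. A pair of synonymous SNPs 6 bp apart, at 3720274 and 3720280 on chromosome 17, had shares of 0.407 and 0.432, with no animal of 7 above 0.5 at either. The SNP at 3727193 had shares of 0.5, 0.577 and 0.698 in the lowest, median and highest of 9 animals, of which 8 were above 0.5 (summed share 0.582, exact permutation P = 0.00781). The reference allele was therefore lower at the pair and higher at 3727193. Whether the same chromosome copy was the higher at both places cannot be told from the genotypes.

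Of the 14 receptor genes, 4 had AI, against 30.6% of all genes: FZD2, FZD4, FZD7 and NOTCH4. The TGF-beta and BMP receptors ACVR1, ACVR1C, ACVR2A, TGFBR1 and TGFBR2 did not pass the gene threshold, nor did FZD1, FZD6, LRP6, NOTCH2 and NOTCH3. Among these 10, ACVR1, LRP6 and TGFBR2 had 1 called SNP each and NOTCH2 had 3 of 18.

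FZD4, the frizzled that also receives the ligand norrin in blood vessels, had the most SNPs with AI of any signalling gene, 26 of 31, of which 21 had the reference allele higher. The depth was high, with a median of 447 reads per heterozygous animal over its SNPs. The largest statistic belonged to a 3' UTR SNP, at 8044595 on chromosome 21, heterozygous only in RS947: 441 reference and 48 alternate reads, a share of 0.902 (Wilson 95% interval 0.872 to 0.925). The 17 animals called homozygous there carried 2.19% of reads of the other allele.

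Most other FZD4 SNPs fell into runs, meaning SNPs of a gene whose genotypes were the same, or exactly mirrored, in all 18 animals. Across a run the reads were assigned to the chromosome copy with the reference base at the first SNP, mirrored SNPs being turned over. The copies were inferred from genotypes called on the same reads and were not phased directly. In FZD4 a run of 12 SNPs over 5564 bp was heterozygous in 13 animals. Its reference shares lay between 0.461 and 0.553, on both sides of 0.5. Turned to the same copy, all 12 SNPs were below 0.5, from 0.447 to 0.491. Averaged over the run, 12 of 13 animals were below 0.5, with 0.423, 0.477 and 0.502 in the lowest, median and highest animal.

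A second FZD4 run of 9 SNPs in the 3' UTR, from 8042333 to 8044924, was heterozygous in 6 animals. All 9 SNPs had AI with the reference allele higher, from 0.557 to 0.636, and the 6 animals averaged 0.572 to 0.644. At its SNP with the largest statistic, 8044616, named after its values were seen, the 6 animals ran from 0.609 to 0.665 with a median of 0.619 (2066 reference and 1223 alternate reads, exact permutation P = 0.0313, the smallest possible). RS920, RS929, RS947 and RS969 were heterozygous in both runs, and in the run of 12 SNPs these animals held the 4 lowest values, 0.423 to 0.451. The other 9 animals of that run had 0.459 to 0.502, so the 2 sets did not overlap, and the difference was not tested because it was noticed in these values.

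The shortest FZD4 run, of 3 SNPs, had shares of 0.531 to 0.535, and 4 of its 5 animals averaged above 0.5. The SNP at 8042441 had the largest dispersion in FZD4, 6.57, with 10 animals from 0.380 in RS929 to 0.554 in RS940 and a median of 0.478. Its summed share of 0.484 was not called. Without RS929 the mean over animals was 0.493 in place of 0.481.

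**Figure D3:**
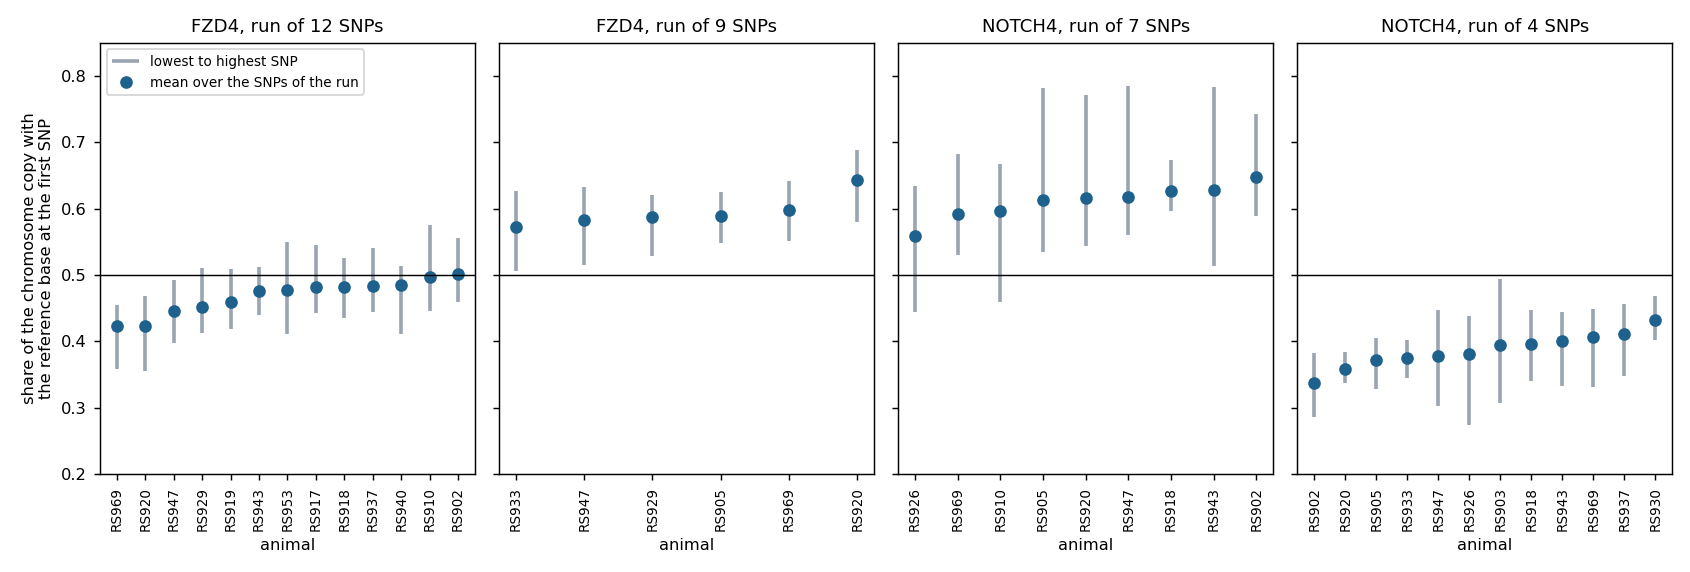
Share (0 to 1) of the chromosome copy with the reference base at the first SNP, in each heterozygous animal, for 2 runs of SNPs in FZD4 and 2 in NOTCH4. Points are means over the SNPs of the run and lines join the lowest and highest SNP: 12 of 13 animals lie below 0.5 in the FZD4 run of 12 SNPs, all 6 above it in the run of 9, all 9 above it in the NOTCH4 run of 7 and all 12 below it in the run of 4.

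NOTCH4, a Notch receptor of endothelial cells that lies in the major histocompatibility region of chromosome 20, had 17 called SNPs of 24, 8 with the reference allele higher and 9 with the alternate allele higher. At the synonymous splice region SNP at 26310826 the 9 animals ran from 0.552 to 0.784, with a median of 0.742. None was below 0.5 (465 reference and 196 alternate reads, summed share 0.703, exact permutation P = 0.00391, the smallest for 9 animals; adjusted P = 0.0110). This SNP belonged to a run of 7, with reference shares from 0.365 to 0.703. Turned to the same copy, all 7 were above 0.5, from 0.551 to 0.703, and so were the means of all 9 animals, 0.559 to 0.648. A second run of 4 SNPs, among them the missense SNPs at 26311017 and 26312001, had shares of 0.381 to 0.403 and was below 0.5 in all 12 heterozygous animals.

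Not every NOTCH4 SNP was called. At 3 SNPs from 26320405 to 26320409, heterozygous in all 18 animals, and at 26321785 and 26325345, the shares lay between 0.482 and 0.541 and none was called. Whether the first 3 mark 2 alleles of a single locus was not tested, so they do not show where along the gene the imbalance ends. In NOTCH2, 3 of 18 SNPs were called, all with the reference allele higher, and 2 had a spread beyond counting error. The SNP described next was named for its large dispersion and does not stand for the gene. At 96437336 on chromosome 1 the 8 animals ranged from 0.182 to 0.796 with a median of 0.427, a dispersion of 4.89, while the summed share was 0.486. Its lowest animal had 11 reads at this SNP, and with at least 20 reads required the mean moved from 0.456 to 0.495. NOTCH3, with 4 SNPs, had no call.

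FZD7 and FZD2 were read almost only through stretches of SNPs heterozygous in all 18 animals. FZD7 had 10 such SNPs within 153 bp, and the reference share changed along them from 0.764 at the first SNP to 0.389 at the fifth and back to 0.694 at the last. At the first, 203262788 on chromosome 2, the animals ran from 0.684 to 0.842 with a median of 0.782, and all 18 were above 0.5 (permutation P = 1e-05). At the fifth, 203262866, all 18 were below 0.5, from 0.312 to 0.476. The reference share thus moved from above 0.5 to below it within 78 bp in the same animals. Which bases lie on the same chromosome copy is not known, so the change of side alone cannot be told apart from a switch of phase. The distance from 0.5 changed as well, with shares of 0.428 at 203262851 and 0.553 at 203262924. What lies behind the change in distance was not tested. The only other FZD7 SNP, 48 bp further at 203262989, was heterozygous in 6 animals, with shares of 0.3 to 0.593, a median of 0.506 and no call.

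FZD2 had 11 such SNPs within 202 bp and no other. Of these 4 were called, 2 in each direction, with shares from 0.423 to 0.637. At 43748830 on chromosome 11 the animals ran from 0.385 to 0.808 with a median of 0.640, and 16 of 18 were above 0.5 (permutation P = 0.000410). Depth was low, with a median of 23 reads per animal at that SNP.

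**Figure D4:**
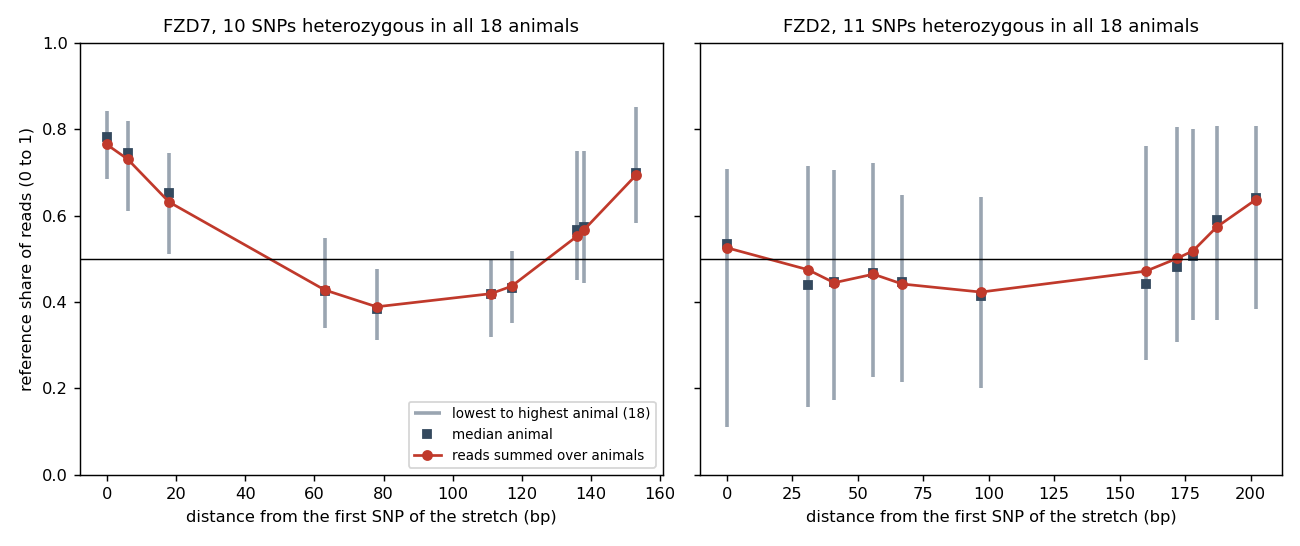
Reference share (0 to 1) against the distance in bp from the first SNP of the stretch, for the FZD7 and FZD2 SNPs heterozygous in all 18 animals. Lines span the lowest to the highest animal, squares are the median animal and circles the summed reads, and in FZD7 the share falls from 0.764 to 0.389 and rises again within 153 bp.

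Among the 16 intracellular mediators, AI was called in AXIN1, CBY1, DVL2 and NUMB, against 30.6% of all genes. In each of them the gene-leading SNP was heterozygous in all 18 animals. CBY1 encodes chibby, which binds beta-catenin and opposes it. At its missense SNP on chromosome 3 at 214283417 the animals ran from 0.792 to 0.923 with a median of 0.882, all 18 above 0.5 (1538 reference and 221 alternate reads). The nearest other CBY1 SNP, 71 bp away, had a share of 0.534. At the missense SNP at 214284865 the 12 animals ran from 0.457 to 0.619 with a median of 0.553, 10 of them above 0.5 (exact permutation P = 0.00488, adjusted P = 0.0126), and CBY1 passed the gene threshold on this SNP as well.

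DVL2, a dishevelled protein that carries the signal from frizzled, had 5 SNPs within 8 bp at the edge of an intron, with shares of 0.823 to 0.842. At 26570290 on chromosome 11 the animals ran from 0.779 to 0.897 with a median of 0.838, and all 18 were above 0.5. The sixth SNP of the gene, 1107 bp away and downstream of the annotated end, had shares of 0.324 to 0.6 in 7 animals with a median of 0.45 and was not called. AXIN1, the scaffold of the destruction complex, had 3 SNPs within 4 bp with shares of 0.592 to 0.603. At 239255 on chromosome 24 the animals ran from 0.406 to 0.774 with a median of 0.617, 15 of 18 above 0.5 (permutation P = 0.000480). Its other 5 SNPs, at 0.429 to 0.505, were not called, and the gene call was lost without RS917, RS940 or RS969. The lowest of these, the missense SNP at 236772, had shares of 0.323 to 0.593 in 7 animals with a median of 0.389 (exact permutation P = 0.125).

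NUMB, an inhibitor of Notch that is inherited unequally in some dividing cells, had a splice region SNP at 81663001 on chromosome 7. The animals ran from 0.548 to 0.879 with a median of 0.732, all 18 above 0.5. A 5' UTR SNP at 81772239 was called too, with shares of 0.457 in RS910, 0.556 in RS905, 0.7 in RS920, 0.679 in RS940 and 0.667 in RS953, so 1 of 5 animals lay below 0.5 (summed share 0.615, exact permutation P = 0.125). The third NUMB SNP, at 0.521, was not called.

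Several core members of the BMP and Wnt cascades had no AI call. APC, the tumour suppressor that scaffolds beta-catenin destruction, had 28 SNPs and no AI call, with shares from 0.453 to 0.567 around a median of 0.491. Of its runs of matching SNPs, 3 of 4 had SNPs on both sides of 0.5. The 7 SMAD genes, SMAD1 to SMAD7, gave 12 SNPs with no call and shares from 0.442 to 0.555. Beta-catenin, listed as CTNNB, had a share of 0.506 at a SNP with a median of 434.5 reads per animal, and its 8 animals ran from 0.467 to 0.554. DVL3, SMURF2 and TGFBRAP1 had no call. A P that misses the threshold does not show equal expression, and at the SMAD SNPs the median depth of 30 to 93 reads per animal limits what could be seen.

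Among nuclear factors, RBPJ and HES1 had AI and TCF7L2, at 0.498, had none. RBPJ, the DNA-binding partner of cleaved Notch, was read at a synonymous SNP on chromosome 6 at 45706079. The 13 animals ran from 0.458 to 0.659 with a median of 0.568, and 12 were above 0.5 (summed share 0.573, exact permutation P = 0.000977, adjusted P = 0.00303). The gene call was lost without RS926 or RS969. HES1, a repressor switched on by Notch, was the only one of the 19 genes with AI whose leading SNP had the alternate allele higher. Its 3 missense SNPs within 5 bp on chromosome 1 were heterozygous in all 18 animals, with shares of 0.246 to 0.281. At 191625646 the animals ran from 0.118 to 0.467 with a median of 0.232, all 18 below 0.5 (permutation P = 2e-05). The gene had no other SNP.

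Of the genes matched by name only, CTNNBL1 and JAGN1 had AI and DKKL1 and TGFBI had none. CTNNBL1, a protein of the splicing machinery, had shares of 0.469, 0.622 and 0.746 in the lowest, median and highest of 8 animals at 66323133 on chromosome 13, 7 of them above 0.5 (exact permutation P = 0.0234, adjusted P = 0.0427). This SNP formed a run with 2 others over 27447 bp, and turned to the same copy all 3 lay on the same side of 0.5. The gene call was lost without RS926, RS933, RS940 or RS943. JAGN1, an endoplasmic reticulum protein needed by neutrophils and no Notch ligand, had 4 SNPs within 4 bp heterozygous in all 18 animals, at 0.624 to 0.647. At 16761579 on chromosome 19 the animals ran from 0.488 to 0.75 with a median of 0.653, 16 of them above 0.5.

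Called SNPs that change the protein or lie in a splice region were mostly of the kind heterozygous in every animal. In the 19 genes with AI there were 31 such SNPs in 10 genes, with shares from 0.246 to 0.874, and 20 of them were heterozygous in 15 or more animals. Of the rest, 7 were in NOTCH4, 3 in LTBP2 and 1 in CBY1. The NOTCH4 SNPs had shares from 0.384 to 0.703. Over all 52 genes, 25 of 43 tested missense SNPs and 9 of 11 tested splice region SNPs were called. Over all tested SNPs of any kind 38.0% were called. The share over all missense or splice region SNPs was not computed, so no excess of such SNPs is shown.

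Of 31 named SNPs, 20 passed the sign-flip test over animals after adjustment. Most of the 31 were chosen for their statistic on the same reads, and the adjustment covered only these 31. The permutation P values therefore come after selection and are not independent support for the calls. The 11 that did not pass were the 5 chosen for their dispersion, in LTBP2, FZD4 and NOTCH2, the SNPs of FZD7, AXIN1, DVL2 and NUMB that were heterozygous in 5 to 14 animals, the WNT11 SNP and the FZD4 SNP with a single heterozygote. The moderated quasi-binomial test kept 10 of the 19 genes and lost AXIN1, CTNNBL1, ENG, FSTL1, FZD2, LTBP2, RBPJ, SFRP2 and WNT11. A wider list of 154 genes of the same pathways, not matched by name, had SNPs in 61. AI was called in 19 of the 61: 5 of 19 TGF-beta and BMP genes, 7 of 22 Wnt genes and 7 of 20 Notch genes. Unlike the signalling SNPs above, this list was not limited to autosomes. CHRDL1, among the called TGF-beta and BMP genes, lies on the X chromosome. Over the 3 lists together the shares were near or below the background: 31.1% of genes against 30.6%, and 105 of 294 SNPs (35.7%) against 38.0%. Of the called SNPs 86 had the reference allele higher and 19 the alternate allele higher. The largest statistic in each list belonged to DCN, the proteoglycan decorin, with a share of 0.846, to CSNK1A1, casein kinase 1 alpha, with 0.778, and to NCOR1, a nuclear corepressor, with 0.759. In DCN all 17 heterozygous animals lay above 0.5, in CSNK1A1 all 11 and in NCOR1 all 18. The CSNK1A1 animals differed widely, from 0.541 to 0.938 with a dispersion of 20.2, and 1 of the 3 SNPs of that gene was called. The NCOR1 SNP was heterozygous in every animal, so there was no homozygous animal to compare with.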

How the data were processed

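RNA-Seq reads of perirenal fat from 18 fetuses, a single group, were used. According to the methods of the study, the authors used STAR to place the read pairs on the Oar v3.1 assembly, kept unique positions and called SNPs and genotypes from the same reads with the GATK UnifiedGenotyper; the submitters' processing notes name GATK 3.4-46. The deposited values are read counts of the reference and alternate base per SNP and animal, not normalized, with genotypes, for SNPs in Ensembl genes outside simple repeats. The study also kept only SNPs with a minimum number of reads of both alleles in a minimum number of samples. The authors' own columns of that table (chi-square statistic, P, higher allele and proportion of reference reads) were not used. Because genotypes come from the counted reads, a strongly unequal SNP may be called homozygous and so go unread.

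For each SNP the reads of animals called 0/1 were summed. Equality was tested by a Poisson likelihood ratio (doubled log ratio, chi-square distribution, 1 degree of freedom), with Benjamini-Hochberg adjustment over 24244 SNPs. A gene had AI if its smallest P was under 1.7e-05, the P threshold of the study. The study's final gene list also required a high rank after down-sampling of reads to equal depth, which was not done here. Genes with many reads can therefore be called here at small departures from 0.5. Spread between animals was tested by the Pearson chi-square. A moderated quasi-binomial F test (limma 3.58.1 in R 4.3.3) took the animal as the unit. For named SNPs a two-sided sign-flip permutation test on each animal's share minus 0.5 was exact up to 16 animals and otherwise drew 100000 flips, adjusted over the 31 SNPs. Scripts used Python 3.11.15, numpy 2.4.6, pandas 2.3.3, scipy 1.17.1 and matplotlib 3.10.9, and the tests were tested on simulated data.

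Named were the SNP with the largest statistic of each gene with AI, the SNP with the largest statistic among those with 5 to 14 heterozygotes where the first had 15 or more, and the 5 SNPs with the largest dispersion; FZD4 8044616 was added after its values were seen. The members, roles and lists were chosen with earlier results of these data known. The 18 animals are half-sibs, and P values measure the spread between these samples only. Wilson 95% intervals cover counting error only, since PCR reads without molecular identifiers are not independent molecules. Alternatives were an unadjusted threshold, a minimum of 30 reads of each allele in 5 animals, leaving out SNPs with 15 or more heterozygotes or a neighbour within 5 bp, the median share as the null, at least 20 reads per animal, and leaving out each animal.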

Additional observations from a re-analysis of the deposited data

Results flagged for a closer look

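Reads of the other allele appeared in animals called homozygous at some signalling SNPs, a signal that the comparisons above do not use. Over 1% of reads was reached at 10 of 234 signalling SNPs with homozygous animals (4.27%) and at 847 of 23030 SNPs in all (3.68%), and the median over the signalling SNPs was 0.0425%. In FZD4 the share was 34.1% at 8041876 (141 of 414 reads), 13.9% at 8041889 (128 of 918 reads) and 2.19% at 8044595 (218 of 9976 reads). In LTBP4 it was 2.10% at 49054634, 1.42% at 49054637, 1.68% at 49054640 and 1.43% at 49054643. At the 3 LTBP4 SNPs with no heterozygous animal it was 14.1% at 49069847, 3.45% at 49069853 and 4.13% at 49069855. No animal stood apart from the others by Dixon's test at the 18 named SNPs with 4 to 10 heterozygous animals.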

How the results depend on the processing

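When both alleles had to reach 30 reads in 5 animals, 60 SNPs and 11 genes had AI in place of 121 and 19. Gene calls numbered 31 at an unadjusted P under 0.05, 10 by the moderated quasi-binomial test and 12 without SNPs heterozygous in 15 or more animals, and the other pathway genes with AI numbered 38 in place of 19 at the unadjusted threshold. With the median share as the null, the reference allele was the higher at 59.5% of called SNPs in place of 76.0%. Without SNPs that have a neighbour within 5 bp, 14 of 50 genes had AI. With the adjustment over the whole table, 87 of the remaining 237 SNPs were called, or 36.7%, below the 38.0% of all tested SNPs. The median share as the null also left 14 genes. Backgrounds were not recomputed for either setting, so an excess of calls over the background is not shown under them. Leaving out each animal gave 115 to 123 SNPs, 17 to 19 genes, 23 to 30 SNPs with spread, a reference-higher share of 74.8% to 76.7% and a median share of 0.518 to 0.521. Of the 20 named SNPs past the adjusted permutation threshold, 20 passed with at least 20 reads per animal and 13 with the median share as the null. The median share of the signalling SNPs and the mean shares at named SNPs stayed on the same side of 0.5 wherever they were recomputed. No paired analysis was possible because there is a single group of animals and so no second group to pair them with; the comparison of alleles is itself made within each animal. The numbers of heterozygous animals and reads limit what can be seen, and 5 animals cannot give a permutation P under 0.0625.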
